A study of Mus musculus with 33 samples.

Results

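10 genes of lipid and xenobiotic receptors and their cofactors in the liver are described here: the peroxisome proliferator-activated receptor genes Ppara, Ppard and Pparg, the coactivator gene Ppargc1a, the shared receptor partner Rxra, the oxysterol receptor gene Nr1h3 (LXRα), the bile acid receptor gene Nr1h4 (FXR), the corepressor-like receptor gene Nr0b2 (SHP), and the xenobiotic receptor genes Nr1i2 (PXR) and Nr1i3 (CAR). Members were all probe sets whose platform annotation gave 1 of these symbols and no other gene. That rule took 20 of 45037 probe sets, for 10 genes, of which 17 probe sets and 9 genes passed a filter on dim signals, set at 10 or more of the 33 arrays with a log2 value of 4 or above. A further 1 probe set that names a member together with another gene was left out. Each of 33 male C57BL/6J mice, 17 weeks old, gave 1 liver array after 2 weeks of diet. The 12 fenofibrate mice ate sunflower oil at 7% of energy with 0.03% (w/w) of the drug. The 11 fish oil mice ate fish oil at 7% of energy, with 23.1% EPA and 21.1% DHA, and the 10 control mice ate the sunflower oil (81.3% oleic acid) at 7% of energy without the drug. Mice of all 3 groups were fasted during the light phase before the liver was taken.

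Most of these proteins are transcription factors that sense small lipophilic molecules and bind DNA as pairs with RXR, often at repeats of a short half-site. PPARα is the main sensor of fatty acids and fibrates in hepatocytes, LXRα senses oxysterols and drives lipogenic genes, FXR senses bile acids, and CAR and PXR switch on drug metabolism. SHP has no DNA-binding domain and represses other receptors, and PGC-1α, the Ppargc1a product, coactivates many of them. A receptor is often regulated by its ligand and not through its own mRNA, so mRNA level and receptor activity are separate quantities, and the arrays measured the mRNA.

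Values are log2 expression per probe set, and differences are log2 differences with standard errors from limma. A gene was called at an adjusted p under 0.05, with adjustment over 9005 genes. In liver tissue, fewer cells of a type and less RNA per cell cannot be told apart. All 12 hepatocyte markers were measured, and their mean lay between 13.67 and 13.87 on fenofibrate, between 13.81 and 13.99 on fish oil and between 13.88 and 14.03 in controls. Both diets are compared with the same 10 controls, so an odd control moves both comparisons. The labels say that mice were caged in pairs without saying which, and arrays with consecutive label numbers deviated together (median correlation 0.14 over 16 such pairs, against -0.13 over 150 other pairs of a diet), so p-values can be too small. Control replicates 1, 2 and 9 stood apart from the other 7 controls, whose mean is the reference for the deviations given here. The median deviation of 14 clock genes was -1.32, -0.62 and -0.49 there and -0.20 to 0.13 in the other 7. It was -0.92 to -0.21 on fenofibrate and -0.83 to 0.10 on fish oil, so replicates 2 and 9 lay within the ranges of both diets. The median deviation of 23 acute phase genes was 1.02, 1.34 and 0.08 in these 3 controls. It was -0.08 to 0.19 in the other 7, so replicate 9 lay within their range, -0.49 to 0.10 on fenofibrate and -0.14 to 0.67 on fish oil. Comparisons with control were therefore also fitted without these 3 arrays. Values from that fit are given below for members whose call or sign changed, and for list counts that moved by over 1.5 times. For named genes they are given only in some of the cases where a call changed. The other list counts printed below moved by 2 genes or fewer.

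On fenofibrate, 5 of the 9 measured members were called against control, and 4 without control replicates 1, 2 and 9, where Nr1i3 lost its call. Pparg, Nr1i2 and Nr1i3 were higher, and Rxra and Nr1h4 were lower. Of all genes 40.8% were called in that comparison, 22% higher and 18.9% lower, and the 5 of 9 are read against that share. On fish oil 1 member, Nr1i3, was called higher against control, where 14.5% of all genes were called, 7.53% higher and 7.00% lower. Fenofibrate against fish oil gave 3 called members, Pparg higher and Rxra and Nr1h4 lower, where 38.9% of all genes were called, 19.8% higher and 19.1% lower. No member had groups fully apart in any comparison, where 5.41% of genes had such groups between fenofibrate and control mice, 1.05% between fish oil and control mice and 6.34% between fenofibrate and fish oil mice. The median size of a member's difference was 0.36, 0.22 and 0.19 in these 3 comparisons, in that order, beside 0.16, 0.10 and 0.16 over all genes, and the median signed difference was 0.01, 0.04 and -0.03 beside -0.0016, 0.01 and -0.0091.

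Counted by probe set, 3 of the 17 measured were called higher and 3 lower on fenofibrate against control, where 36.6% of all probe sets past the filter were called. For fish oil against control 1 was called higher and 1 lower (background 11.6%), and for fenofibrate against fish oil 2 higher and 3 lower (background 34.5%). The plots of values by array and of differences show all 9 measured genes.

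**Figure D1:**
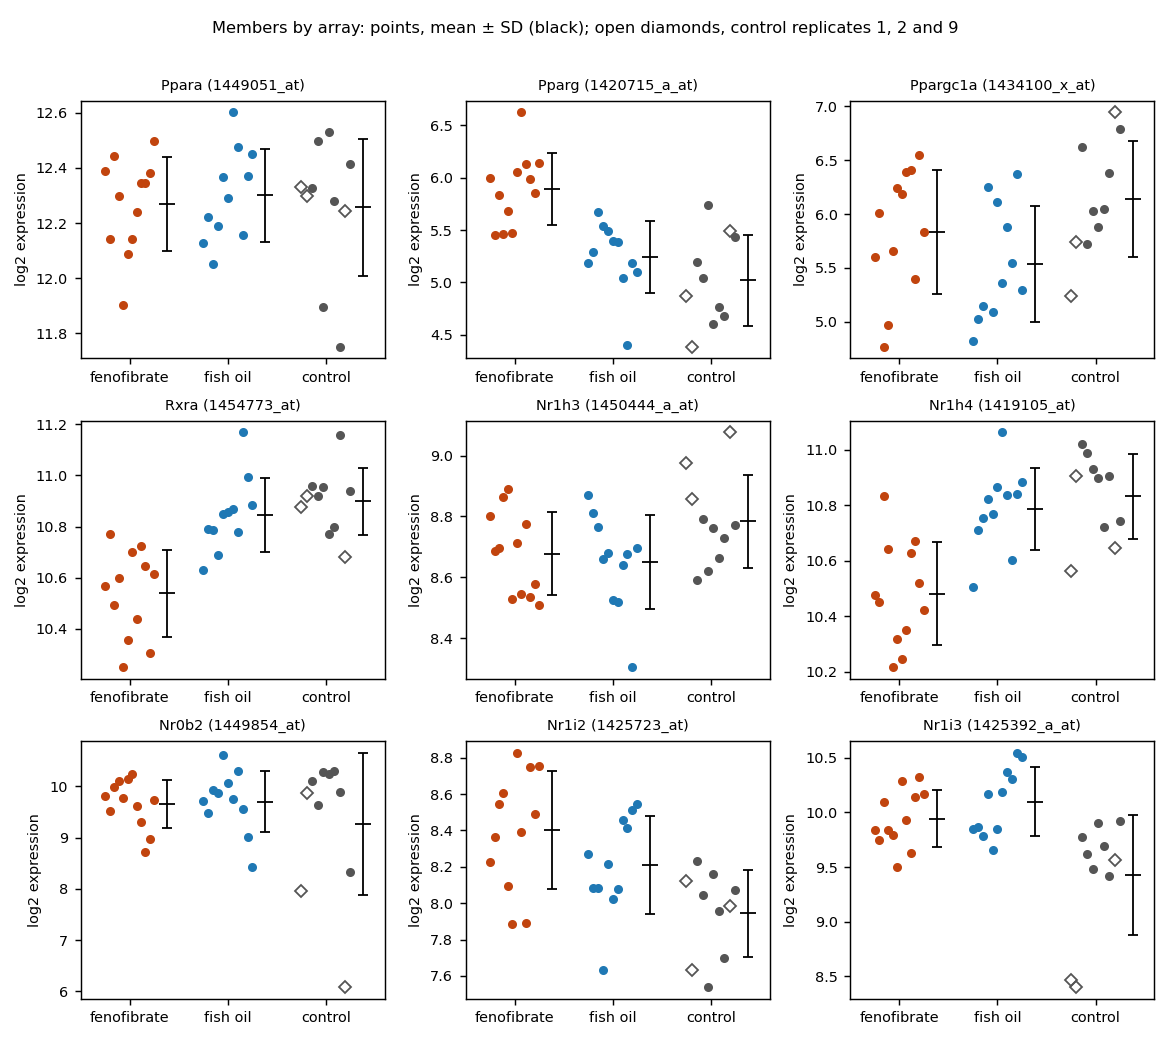
Log2 expression (y axis) of the probe set that stands for each measured member on the 12 fenofibrate, 11 fish oil and 10 control arrays (x axis), with the group mean ± SD in black and control replicates 1, 2 and 9 as open diamonds. Pparg sits highest and Rxra and Nr1h4 lowest on fenofibrate, while control replicates 1 and 2 lie at 8.47 and 8.40 for Nr1i3, below all other arrays.

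**Figure D2:**
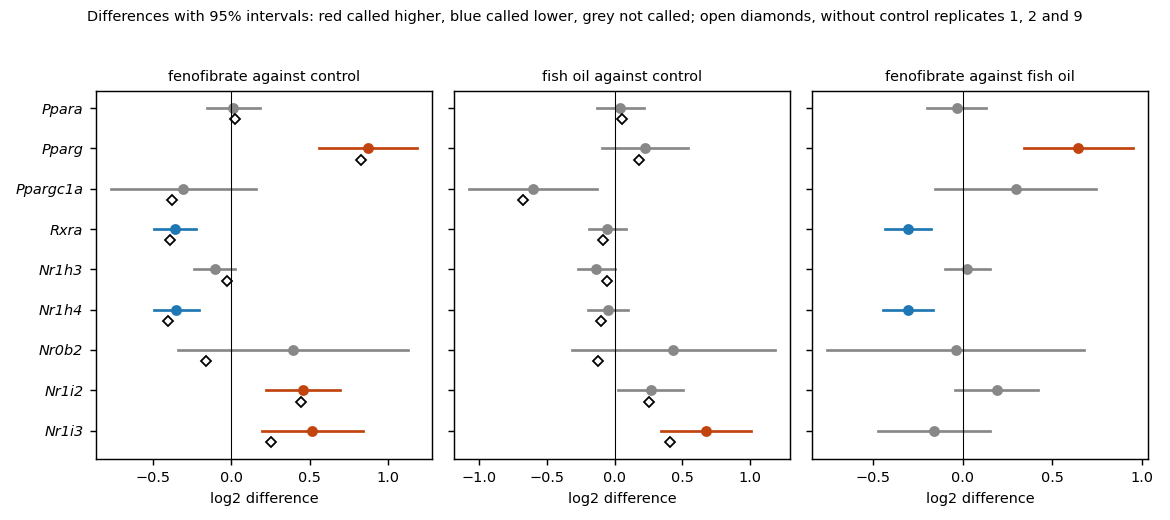
Log2 difference (x axis) of each measured member (rows) with its 95% interval in 3 comparisons, red where called higher, blue where called lower and grey where not called, with open diamonds for the value without control replicates 1, 2 and 9. The interval of Ppara spans 0 in all 3, and for Nr0b2 the diamonds fall on the other side of 0.

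Ppara, the gene of the receptor that fenofibrate activates, was not called in any comparison. Its brightest probe set, 1449051_at, had 11.90, 12.32 and 12.50 as lowest, median and highest value on fenofibrate, 12.05, 12.29 and 12.60 on fish oil, and 11.75, 12.31 and 12.53 in controls. The ranges of the 3 diets overlapped almost wholly. The difference was 0.01 ± 0.08 for fenofibrate against control (adjusted p = 0.927), with a 95% interval of -0.16 to 0.18. For fish oil against control it was 0.04 ± 0.09 (adjusted p = 0.800, interval -0.13 to 0.22). Fenofibrate against fish oil gave -0.03 ± 0.08 (adjusted p = 0.785). The other 2 Ppara probe sets, 1439675_at and 1457721_at, gave 0.03 and -0.05 for fenofibrate against control and were not called either. These intervals hold changes of up to about 0.2, so a Ppara change of that size or smaller is not excluded.

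Genes that PPARα is known to switch on moved in the same livers. Of 25 measured targets of the 30 listed, 20 were called higher on fenofibrate against control and the other 5 were not called, with a median difference of 0.79. On fish oil 18 were called higher and 1 lower, with a median of 0.39. Of all genes 22% were called higher on fenofibrate and 7.53% on fish oil against control. Slc27a1, a fatty acid transport protein gene, averaged 7.55 on fenofibrate and 3.35 in controls (4.20 ± 0.15, adjusted p = 9.09e-21). The fatty acid uptake receptor gene Cd36 differed by 3.32 ± 0.17 and the omega-hydroxylase gene Cyp4a31 by 4.36 ± 0.29 (adjusted p = 1.33e-16 and 8.72e-14). Cyp4a probe sets can bind relatives of the gene they are named for. On fish oil the smallest adjusted p-values were those of Vnn1, a pantetheinase gene (1.25 ± 0.17), and of the beta-oxidation genes Ehhadh (1.20 ± 0.18) and Acadm (0.40 ± 0.06). The 1 target called lower on fish oil was Fgf21, a fasting hormone gene, with 2.96 on fish oil and 5.18 in controls (-2.22 ± 0.41, adjusted p = 1.87e-04), chosen after its values were seen. Between the diets 19 targets were higher on fenofibrate and 2 lower, the 3 smallest adjusted p-values being those of Slc27a1 (3.60 ± 0.15), Cd36 (2.96 ± 0.17) and Acadl (0.56 ± 0.05).

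Ppard could not be tested. Its probe set 1425703_at averaged 2.11 on fenofibrate, 2.09 on fish oil and 2.05 in controls, and 1439797_at averaged 3.64, 3.61 and 3.68 in that order of diets. The first reached a log2 value of 4 on no array and the second on 2 of 33. PPARδ is a widely expressed receptor of fatty acids, and nothing about its level in these livers follows from signals this dim.

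Pparg, the receptor gene best known for lipid storage in fat cells, was the member with the largest called difference on fenofibrate. Probe set 1420715_a_at had 5.46, 5.92 and 6.62 (lowest, median, highest) on fenofibrate, 4.40, 5.29 and 5.67 on fish oil, and 4.39, 4.96 and 5.74 in controls. In 8 of the 12 fenofibrate mice it lay above every control, and in 9 of 12 above every fish oil mouse. The difference from control was 0.87 ± 0.15 (adjusted p = 2.60e-05), a 1.83-fold rise, and from fish oil 0.65 ± 0.15 (adjusted p = 8.05e-04). Fish oil against control gave 0.22 ± 0.16 (adjusted p = 0.379). The signal is dim: a filter at a log2 value of 6 leaves the gene out. RefSeq lists 3 starts for Pparg in GRCm38.p6, and the array values do not separate them. The windows at the first and the second hold 1 nuclear receptor half-site each (AGGTCA on either strand, present in 16.3% of 32851 mouse promoter windows of 300 bases), and the third holds none. The second is shown because Pparg had the largest called difference, with the half-site in capitals. It is chr6:115362099-115362398 on the + strand.
Pparg second start: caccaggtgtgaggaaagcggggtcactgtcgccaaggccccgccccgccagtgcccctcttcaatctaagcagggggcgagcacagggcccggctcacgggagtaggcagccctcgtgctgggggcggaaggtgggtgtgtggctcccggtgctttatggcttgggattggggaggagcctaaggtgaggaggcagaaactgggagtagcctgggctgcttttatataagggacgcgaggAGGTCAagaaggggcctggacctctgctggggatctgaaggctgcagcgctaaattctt

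Listed PPARγ targets moved with fenofibrate as well, though several are also PPARα targets, and Cd36 stands in both lists. Of 10 measured of 15, 9 were called higher on fenofibrate against control (median 1.51) and 8 higher against fish oil (median 1.10). On fish oil against control 2 were called higher, and 4 without control replicates 1, 2 and 9. Over all genes and arrays the shares called higher were 22%, 19.8% and 7.53% in these comparisons, in that order. Mogat1, which makes diacylglycerol, averaged 9.05 on fenofibrate, 2.82 on fish oil and 2.49 in controls (6.56 ± 0.17 from control, adjusted p = 9.05e-25). The gene of lipoprotein lipase, Lpl, differed by 3.29 ± 0.21 on fenofibrate and by 0.77 ± 0.21 on fish oil (adjusted p = 2.18e-14 and 0.0118). Fitm1, a lipid droplet gene, was the other target called on fish oil (1.00 ± 0.18, adjusted p = 1.44e-04). Of the adipocyte markers, 3 of 8 were measured: Cidec (3.90 ± 0.53) and Fabp4 (1.28 ± 0.30) were called higher and Car3 (-0.56 ± 0.10) lower on fenofibrate against control, and their mean ranged from 9.94 to 11.71 on fenofibrate, 8.58 to 8.99 on fish oil and 8.43 to 10.67 in controls. Cidec and Fabp4 are also among the listed PPARγ targets counted above, and Car3 is not. Adipoq, Plin1, Lep, Cfd and Retn are not analysed here. Of 13 macrophage markers, 3 were called lower on fenofibrate against control, near the share of 18.9% over all genes, and the other 10 were not called. Without control replicates 1, 2 and 9 only 1 macrophage marker was called lower. The part of these cells in the Pparg difference was not tested.

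Ppargc1a, whose product coactivates PPARα and rises in fasting liver, was called on neither diet at the probe set that stands for it. Probe set 1434100_x_at had 4.77, 5.92 and 6.55 (lowest, median, highest) on fenofibrate, 4.82, 5.36 and 6.38 on fish oil, and 5.24, 6.03 and 6.95 in controls, with wide overlap. Fenofibrate against control gave -0.31 ± 0.23 (adjusted p = 0.296) and fish oil against control -0.60 ± 0.23 (adjusted p = 0.0768). Over the 5 Ppargc1a probe sets the fenofibrate difference ran from -0.31 to 0.06 and none was called, so its sign depends on the probe set. The fish oil difference passed the threshold without control replicate 1 (-0.70, adjusted p = 0.0343), without fish oil replicate 10 (-0.69, adjusted p = 0.0424) and with array weights (-0.65, adjusted p = 0.0299), but not without control replicates 1, 2 and 9 (-0.67, adjusted p = 0.0552), with the replicate block (-0.63, adjusted p = 0.0614) or with the label pair as a random block (-0.60, adjusted p = 0.143). All 5 Ppargc1a probe sets were lower on fish oil, by -0.42 to -0.83, and 1 of them, 1456395_at, was called: 4.26, 5.29 and 6.15 on fish oil against 4.90, 6.17 and 6.75 in controls, a difference of -0.83 ± 0.23 (adjusted p = 0.0137 over probe sets). That probe set was also called between the drugged and the fish oil mice (0.68 ± 0.22 for fenofibrate against fish oil, adjusted p = 0.0138). Its 5 probe sets read 1 gene and are not replicates.

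**Figure D3:**
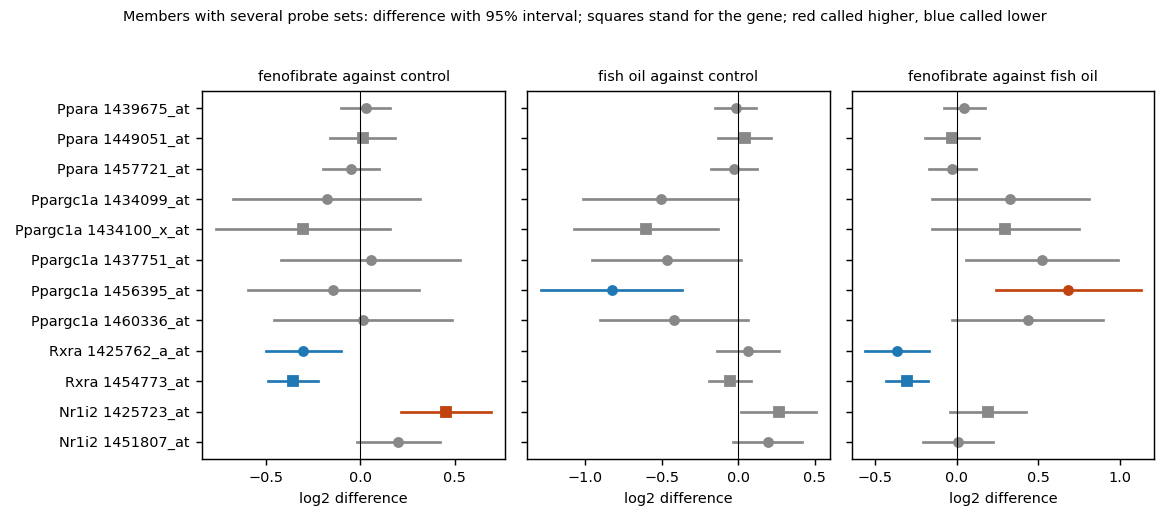
Log2 difference (x axis) with its 95% interval for each probe set past the filter of the members that have several (rows), in 3 comparisons, with squares for the probe set that stands for the gene, red for called higher and blue for called lower. The intervals of the 3 Ppara probe sets span 0, both Rxra probe sets are lower on fenofibrate, 1 of 5 Ppargc1a probe sets is called lower on fish oil, and 1 of 2 Nr1i2 probe sets is called higher on fenofibrate.

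Rxra and Nr1h4 were both lower on fenofibrate, by similar amounts. Rxra encodes the RXR with which PPAR, LXR, FXR, CAR and PXR bind DNA as pairs. Its probe set 1454773_at had 10.25, 10.58 and 10.77 (lowest, median, highest) on fenofibrate, 10.63, 10.85 and 11.17 on fish oil, and 10.68, 10.92 and 11.16 in controls. In 9 of 12 fenofibrate mice it lay below every control, and in 8 of 12 below every fish oil mouse. It fell by 0.36 ± 0.07 against control (adjusted p = 3.82e-05, 1.28-fold lower) and by 0.31 ± 0.06 against fish oil (adjusted p = 2.39e-04). Probe set 1425762_a_at was called lower too, by 0.30 ± 0.10 against control and 0.37 ± 0.10 against fish oil (adjusted p = 0.0143 and 0.00273). The third, 1430497_at, averaged 1.99 on fenofibrate, 2.09 on fish oil and 2.10 in controls and did not pass the filter. Fish oil against control gave -0.05 ± 0.07 (adjusted p = 0.659) for the brightest probe set and 0.06 ± 0.10 for the next, so its sign depends on the probe set.

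Nr1h4, the FXR gene, had 10.22, 10.46 and 10.83 (lowest, median, highest) on fenofibrate at probe set 1419105_at, 10.50, 10.82 and 11.06 on fish oil, and 10.56, 10.90 and 11.02 in controls. It lay below every control in 8 of 12 fenofibrate mice and below every fish oil mouse in 7. It fell by 0.35 ± 0.07 against control (adjusted p = 1.55e-04, 1.28-fold lower) and by 0.31 ± 0.07 against fish oil (adjusted p = 6.12e-04). Fish oil against control gave -0.05 ± 0.07 (adjusted p = 0.742). Hepatocyte markers moved on fenofibrate against control: 7 of 12 were called lower and 2 higher, beside 18.9% and 22% of all genes. Their median difference was -0.17, and 9 had an unadjusted p under 0.05 by limma over all arrays. Without control replicates 1, 2 and 9 limma called 7 lower and 0 higher. Hnf4a (-0.42 ± 0.06) was among the lower ones, while Alb gave -0.02 and was not called. Their part in the Rxra and Nr1h4 differences was not tested. Across mice of a diet, Rxra and Nr1h4 deviated with r = 0.28 (adjusted p = 0.460, permutation test). The windows below are shown because both members fell on fenofibrate. Rxra has 2 starts in RefSeq (GRCm38.p6), of which the first window holds no AGGTCA half-site and the second holds 2, 1 on each strand. Only the second Rxra window, the one with half-sites, is printed. The Nr1h4 window holds 1, on the opposite strand, where it reads TGACCT. The capitals mark these half-sites. The Rxra window is chr2:27709042-27709341 on the + strand and the Nr1h4 window chr10:89506609-89506908 on the - strand.
Rxra second start: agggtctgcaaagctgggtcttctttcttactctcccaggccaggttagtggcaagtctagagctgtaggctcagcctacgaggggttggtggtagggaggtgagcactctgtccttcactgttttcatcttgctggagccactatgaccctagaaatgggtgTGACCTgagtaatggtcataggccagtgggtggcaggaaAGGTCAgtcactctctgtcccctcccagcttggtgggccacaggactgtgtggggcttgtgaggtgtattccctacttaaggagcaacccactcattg
Nr1h4 start: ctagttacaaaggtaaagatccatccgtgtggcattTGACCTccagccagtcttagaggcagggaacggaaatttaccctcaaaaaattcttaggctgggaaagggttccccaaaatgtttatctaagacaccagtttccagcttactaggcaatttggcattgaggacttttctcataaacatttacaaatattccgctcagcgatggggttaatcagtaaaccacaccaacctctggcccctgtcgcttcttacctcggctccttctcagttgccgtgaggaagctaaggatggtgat
Pairs of half-sites within 5 bases of each other, present in 0.167% of windows, were in no member's window.

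Genes regulated by FXR or by its mediator SHP were mostly lower on fenofibrate. Of 16 measured of 18, 13 were called lower and 2 higher against control (median -0.31), and 8 lower and 1 higher against fish oil (median -0.12). On fish oil against control 6 were called lower and 1 higher (median -0.11). Of all genes 18.9%, 19.1% and 7.00% were called lower in these 3 comparisons, in that order. The organic anion transporter gene Slc22a7 averaged 4.20 on fenofibrate, 8.44 on fish oil and 8.69 in controls (-4.50 ± 0.25 against control, adjusted p = 1.30e-15). Slco1a1, an uptake transporter gene, fell by 2.50 ± 0.21 and Fetub, a secreted protease inhibitor gene known as an FXR target in human cells, by 0.79 ± 0.06 (adjusted p = 1.36e-11 and 1.61e-12). On fish oil the 3 with the smallest adjusted p were Slc10a1, the bile acid uptake transporter gene (-0.34 ± 0.07), Cyp27a1, of the acidic bile acid pathway (-0.20 ± 0.05), and Apoa1 (-0.14 ± 0.04). The list holds genes that FXR raises and genes that SHP lowers, so its median mixes both kinds. Cyp8b1, which SHP represses in this pathway, was called higher on fenofibrate against control (0.75 ± 0.19, adjusted p = 0.00228). Cyp7a1, the rate-limiting enzyme gene of bile acid synthesis that SHP also represses, was called lower (-1.16 ± 0.43, adjusted p = 0.0294), and without control replicates 1, 2 and 9 that call was lost (adjusted p = 0.0931). Both genes were chosen after their values were seen.

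Nr0b2, the SHP gene, is a standard FXR target, and 3 controls lay far below the rest. Probe set 1449854_at had 8.71, 9.76 and 10.24 (lowest, median, highest) on fenofibrate, 8.42, 9.76 and 10.62 on fish oil, and 6.08, 9.89 and 10.30 in controls. Control replicates 9, 1 and 10 lay at 6.08, 7.96 and 8.32, and the other controls between 9.63 and 10.30. The control SD was 1.39, against 0.47 on fenofibrate and 0.60 on fish oil. The difference was 0.39 ± 0.36 for fenofibrate against control (adjusted p = 0.410) and 0.43 ± 0.37 for fish oil against control (adjusted p = 0.487). Without control replicates 1, 2 and 9 the signs turned, to -0.16 ± 0.26 (adjusted p = 0.656) and -0.12 ± 0.27 (adjusted p = 0.813). Fenofibrate against fish oil, which uses no control array, gave -0.04 ± 0.35 (adjusted p = 0.941). Its promoter window holds 1 E-box (CACGTG, the clock factors' motif, in 7.15% of windows), and a D-box (TTATGTAA, in 0.938% of windows) was in no member's window.

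Nr1h3, the LXRα gene, was lower on both diets by amounts that did not pass the test. Probe set 1450444_a_at had 8.51, 8.69 and 8.89 (lowest, median, highest) on fenofibrate, 8.31, 8.68 and 8.87 on fish oil, and 8.59, 8.77 and 9.08 in controls. The difference was -0.11 ± 0.06 for fenofibrate (adjusted p = 0.193) and -0.13 ± 0.07 for fish oil (adjusted p = 0.185). The 3 controls that stand apart were its highest, at 8.98, 8.86 and 9.08, where the other 7 spanned 8.59 to 8.79. Without them the values were -0.03 and -0.05. Fenofibrate against fish oil gave 0.03 ± 0.06 (adjusted p = 0.760).

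Listed LXR targets were called in both directions, where 22% of all genes were called higher and 18.9% lower on fenofibrate against control. On fish oil against control these shares were 7.53% and 7.00%. Of 18 measured of 19 (Nr1h3 itself is on the list), 8 were called higher and 2 lower on fenofibrate against control, and 3 higher and 6 lower on fish oil against control; without control replicates 1, 2 and 9 the counts were 6 and 1, and 2 and 7. On fenofibrate against fish oil 9 were higher and 1, the sterol exporter gene Abca1, was lower (-0.33 ± 0.05, adjusted p = 4.04e-06). Against control Abca1 was called higher on fish oil (0.18 ± 0.05, adjusted p = 0.0174) and lower on fenofibrate (-0.14 ± 0.05, adjusted p = 0.0276). The fenofibrate call was lost without control replicates 1, 2 and 9 (adjusted p = 0.0555). Abca1 was chosen after its values were seen. Pltp, the phospholipid transfer protein gene, averaged 13.45 on fenofibrate, 10.58 on fish oil and 11.64 in controls, so that the 2 diets moved it in opposite directions (1.80 ± 0.12 and -1.06 ± 0.12 from control, adjusted p = 6.77e-14 and 9.06e-08). The lipogenic genes Fasn and Acaca followed the same order, with Fasn at 12.33, 9.29 and 11.55 and Acaca at 10.19, 8.33 and 9.65. From fish oil fenofibrate differed by 3.04 ± 0.16 for Fasn and by 1.86 ± 0.12 for Acaca (adjusted p = 2.35e-16 and 4.69e-14). Smpdl3a, a sphingomyelinase-like gene, was called higher on fenofibrate (0.39 ± 0.05). Fasn and Acaca are also SREBP-1c targets, and Lpl stands in the PPARγ list as well.

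Nr1i2 and Nr1i3, the genes of the xenobiotic sensors PXR and CAR, were higher on fenofibrate against control. Nr1i2 at 1425723_at had 7.89, 8.44 and 8.83 (lowest, median, highest) on fenofibrate, 7.63, 8.22 and 8.54 on fish oil, and 7.54, 8.02 and 8.23 in controls. In 8 of 12 fenofibrate mice and in 5 of 11 fish oil mice it lay above every control. The difference was 0.46 ± 0.12 for fenofibrate (adjusted p = 0.00208, 1.37-fold) and 0.27 ± 0.12 for fish oil (adjusted p = 0.144). Between the diets it was 0.19 ± 0.11 (adjusted p = 0.190), so a difference between them was not shown. The second probe set, 1451807_at, gave 0.20 ± 0.11 for fenofibrate and 0.19 ± 0.11 for fish oil (adjusted p = 0.149 and 0.285) and was not called.

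Nr1i3 was called on both diets, and 2 control arrays weigh on its size. Probe set 1425392_a_at had 9.50, 9.89 and 10.32 (lowest, median, highest) on fenofibrate, 9.66, 10.17 and 10.55 on fish oil, and 8.40, 9.59 and 9.92 in controls. It lay above every control in 6 of 12 fenofibrate mice and in 6 of 11 fish oil mice. The difference was 0.52 ± 0.16 for fenofibrate (adjusted p = 0.00907, 1.43-fold) and 0.67 ± 0.16 for fish oil (adjusted p = 0.00372, 1.60-fold). Control replicates 1 and 2 lay at 8.47 and 8.40 and the other 8 controls at 9.42 to 9.92. Without replicates 1 and 2 the fenofibrate difference was 0.27 ± 0.12 (adjusted p = 0.0684) and without replicates 1, 2 and 9 it was 0.25 ± 0.12 (adjusted p = 0.102), so that call was lost. The fish oil difference was 0.43 ± 0.12 (adjusted p = 0.0129) and 0.41 ± 0.13 (adjusted p = 0.0227) and remained called. The clock and acute phase genes also deviated on control replicates 1 and 2, as given above, and their part in the Nr1i3 values was not tested. Fenofibrate against fish oil gave -0.16 ± 0.15 (adjusted p = 0.437). The promoter windows of both xenobiotic receptor genes (GRCm38.p6, RefSeq) are shown because both members moved the same way. That of Nr1i3, chr1:171213720-171214019 on the + strand, holds 1 E-box, in capitals, and no AGGTCA half-site, and that of Nr1i2, chr16:38294775-38295074 on the - strand, holds none of the motifs searched.
Nr1i3 start: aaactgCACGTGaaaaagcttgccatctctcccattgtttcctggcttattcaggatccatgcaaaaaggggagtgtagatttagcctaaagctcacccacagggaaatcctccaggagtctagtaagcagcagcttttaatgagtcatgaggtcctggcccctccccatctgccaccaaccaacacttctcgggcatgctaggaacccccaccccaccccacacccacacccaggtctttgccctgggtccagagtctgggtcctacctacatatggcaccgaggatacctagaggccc
Nr1i2 start: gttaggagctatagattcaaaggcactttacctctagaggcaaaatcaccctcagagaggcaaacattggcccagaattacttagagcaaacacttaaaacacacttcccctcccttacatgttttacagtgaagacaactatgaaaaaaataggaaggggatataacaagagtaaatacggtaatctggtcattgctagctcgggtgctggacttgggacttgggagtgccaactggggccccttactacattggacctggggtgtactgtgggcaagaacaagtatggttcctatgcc

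Across mice fed the same diet, Nr1i2 and Nr1i3 had the largest correlation over single arrays among the 36 pairs that the 9 members form. The Pearson correlation of their deviations from the diet means was 0.50 over 33 arrays (adjusted p = 0.0569, two-sided permutation test within diets) and Spearman's rho was 0.66 (adjusted p = 0.00144). Within diets r was 0.85 on fenofibrate, 0.51 on fish oil and 0.36 in controls. Without the 2 arrays farthest from the median of Nr1i2 it was 0.53, without control replicates 1, 2 and 9 it was 0.70 (adjusted p = 0.00216), and over the means of 17 label pairs it was 0.55 (adjusted p = 0.197), where Ppara with Nr1h4 (0.63), Ppara with Nr1i2 (0.61) and Nr1h3 with Nr1i3 (-0.56) were larger in size. No pair passed an adjusted p of 0.05 by Pearson's r over all arrays, 7 of 36 had an unadjusted p under 0.05, and 1 passed by rho. Ppara followed, with r = 0.47 to Nr1i2 (adjusted p = 0.0961) and 0.42 to Nr1h4 (adjusted p = 0.151). Nr1h3 ran opposite to Nr1i3 (r = -0.42, adjusted p = 0.151) and to Ppargc1a (r = -0.41, adjusted p = 0.151). Without control replicates 1, 2 and 9, 5 pairs passed: Nr1i2 with Nr1i3, Ppara with Nr1i2 (0.49), Nr1i3 (0.50) and Nr1h4 (0.48), and Ppargc1a with Nr1h3 (-0.53).

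**Figure D4:**
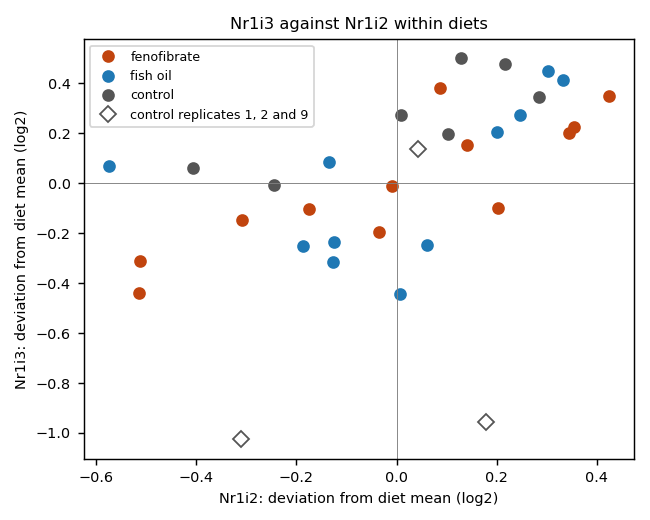
Deviation of Nr1i3 (y axis, log2) against that of Nr1i2 (x axis, log2) from the mean of the mouse's own diet, 1 point per array, coloured by fenofibrate, fish oil and control. Points run from lower left to upper right, and 2 of the open diamonds, control replicates 1 and 2, lie far below the rest.

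Among listed CAR and PXR targets, more were called higher than lower on each diet against control. Of 26 measured of 34, 15 were called higher and 5 lower on fenofibrate against control (median 0.29), and 12 higher and 2 lower on fish oil against control (median 0.25), where the other 12 were not called. Of all genes 22% were called higher on fenofibrate and 7.53% on fish oil against control. Fenofibrate against fish oil gave 6 in each direction, beside 19.8% higher and 19.1% lower over all genes. Ephx1, the microsomal epoxide hydrolase gene, averaged 12.95 on fenofibrate, 12.92 on fish oil and 11.75 in controls (1.21 ± 0.12 and 1.18 ± 0.13 from control, adjusted p = 1.22e-09 and 2.47e-08). The exporter gene Abcc3 differed by 1.53 ± 0.16 and the retinal dehydrogenase gene Aldh1a1 by 0.47 ± 0.05 on fish oil (adjusted p = 2.35e-08 and 8.36e-09). Of 4 measured Cyp2c genes, 3 were called lower on fenofibrate against control, and Cyp2c29 gave -0.20 ± 0.09 (adjusted p = 0.0720). Without control replicates 1, 2 and 9 limma called Cyp2c29 lower too (-0.26, adjusted p = 0.0202). Cyp2c50 was at 11.31, 13.19 and 12.75 on fenofibrate, fish oil and control, and Cyp2c54 at 8.44, 11.81 and 11.10 in that order. Their differences from control on fenofibrate were -1.44 ± 0.13 and -2.65 ± 0.27 (adjusted p = 1.27e-10 and 1.67e-09), and from fish oil -1.88 ± 0.13 and -3.37 ± 0.27. Cyp2c37 differed by -2.16 ± 0.19 between fenofibrate and fish oil. Probe sets of Cyp2c genes can bind transcripts of relatives, so single members are uncertain. Cyp2b10, the usual CAR target, is not analysed here. Cyp2b9, chosen after its values were seen, averaged 10.28 on fenofibrate, 4.13 on fish oil and 2.95 in controls. By limma it was called higher on fenofibrate against control (7.33 ± 0.81, adjusted p = 6.34e-09) and not called on fish oil (1.18 ± 0.83, adjusted p = 0.377). The plot of target lists sets the 5 lists side by side.

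**Figure D5:**
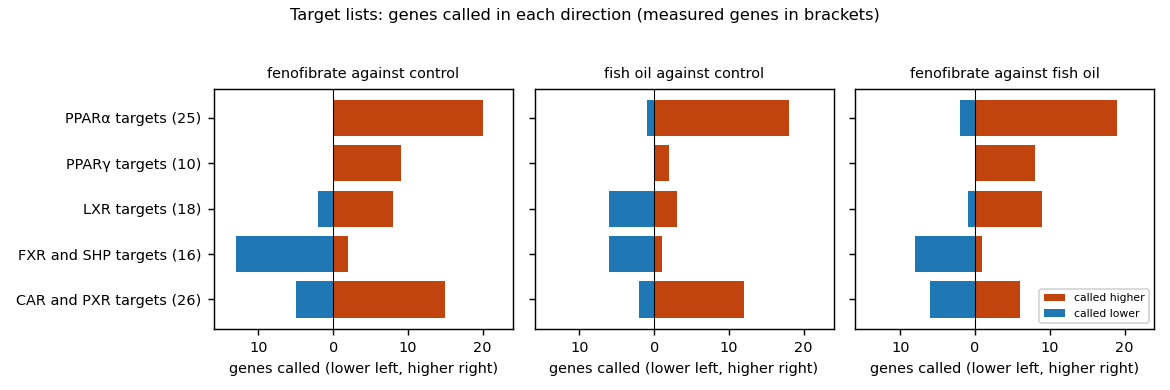
Number of genes called higher (red, to the right) and lower (blue, to the left) on the x axis for 5 target lists (rows, measured genes in brackets) in 3 comparisons. PPARα targets were called higher in 20, 18 and 19 cases, FXR and SHP targets lower in 13, 6 and 8, and LXR targets higher in 8, 3 and 9 and lower in 2, 6 and 1.

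Other partners and receptors were counted in the same way. Of 4 measured RXR family genes and partners of 11, the thyroid receptor gene Thra was called lower on fenofibrate (-0.21 ± 0.07, adjusted p = 0.0179), higher on fish oil (0.27 ± 0.07, adjusted p = 0.00967) and lower on fenofibrate than on fish oil (-0.47 ± 0.07), at mean levels of 4.67, 5.14 and 4.88 on fenofibrate, fish oil and control. Rxrb, Rxrg and Nr4a1 were not called. Of 24 measured coactivators and corepressors of 28, 1 was called higher and 2 lower on fenofibrate against control, against a background of 40.8%, and 3 and 5 without control replicates 1, 2 and 9. Ncoa2 (-0.17 ± 0.04) and Crebbp (-0.25 ± 0.07), 2 acetyltransferase-recruiting or acetyltransferase coactivators, were lower on fenofibrate, and also against fish oil, where 1 gene was higher and 4 were lower. On fish oil against control limma called 0 of the 24, and 3 had an unadjusted p under 0.05; without control replicates 1, 2 and 9 it called 1 higher. Of 13 other nuclear receptors measured of 17, 3 were called lower on fenofibrate against control, near the share of 18.9% over all genes. With all controls these were Hnf4a, a receptor gene of hepatocyte identity (-0.42 ± 0.06, and -0.47 ± 0.06 against fish oil), Nr2f6 (-0.18 ± 0.06, and -0.29 ± 0.06 against fish oil) and Esr1, the oestrogen receptor gene (-1.38 ± 0.23). Without control replicates 1, 2 and 9 the count was 6. Esr1 was also lower on fish oil, with 6.13 on fenofibrate, 5.90 on fish oil and 7.51 in controls (-1.61 ± 0.24, adjusted p = 8.71e-06). Of 14 measured clock genes, 1 was called lower on fenofibrate against control, beside 18.9% of all genes. Without control replicates 1, 2 and 9 the counts were 8 lower and 1 higher. Those controls were set apart by low values of these same clock genes, so the second count follows in part from leaving them out.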

How the data were processed

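Liver RNA of 33 mice was hybridised to 1 Affymetrix array each. The deposited values are log2 expression per probe set, which the authors made with GCRMA; the version, 2.24.1, is from the submitters' processing notes. Of 45101 probe sets, 64 control probe sets were left out, and 34945 carry 1 gene in the platform annotation. Symbols were updated through the gene identifier to GRCm38.p6. The filter kept 17162 probe sets with 10 or more arrays at a log2 value of 4 or above, and the one with the highest mean stood for its gene (9005 genes). One linear model over the 3 diets was fitted with limma 3.58.1 (statmod 1.5.0, R 4.3.3; lmFit, contrasts and eBayes). Tests were two-sided, and p-values were adjusted by Benjamini and Hochberg's method over all genes of a comparison, and again over the 17162 probe sets. The fit was tested on simulated data. Probe sets of 1 gene were compared side by side, and levels of different probe sets were not compared. Correlations between members were tested with 100000 permutations within diets, and adjusted over 36 pairs. Promoter windows come from RefSeq.

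Members, lists and tests were chosen with earlier results of these data known. Named genes are all members and, per target list and comparison, the 3 called genes with the smallest adjusted p, plus partner genes called in at least 2 comparisons, and the 3 genes with deviations most like each member's; exceptions are stated. Alternatives were a stricter or no filter, centred arrays, the mean over a gene's probe sets, a variance trend, fits of 2 diets only, array weights, blocks for replicate number and for label pair, the array label number as covariate, and fits that left out arrays (each in turn, those labelled with the letter A, or control replicates 1, 2 and 9). Same-numbered arrays of different diets correlated with a median of 0.05 in their deviations, and 12 of 31 such pairs were above 0.1. No such median was taken for arrays of different diets with different numbers. Among all arrays of the other diets, 3 of 33 arrays correlated best with an array of their own number. Neither value was tested, so they do not decide whether the numbers pair the mice. Arrays have no depth in reads; precision is limited by their number.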

Additional observations from a re-analysis of the deposited data

How the results depend on the processing

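Leaving out 1 array at a time, the members called stayed at 5 for fenofibrate against control and at 3 for fenofibrate against fish oil, and ranged from 1 to 2 for fish oil against control, where Ppargc1a joined Nr1i3. That count was also 2 with array weights and without control replicates 1 and 2, a setting chosen after seeing the data. For fenofibrate against control the count was 4 with array weights and without control replicates 1 and 2, with or without replicate 9, where Nr1i3 lost its call (0.30, adjusted p = 0.0547, with array weights). Signs turned for differences that were never called. These were small except for Nr0b2 against control, at 0.39 on fenofibrate and 0.43 on fish oil over all arrays. For Ppara, fenofibrate against control was -0.0105 with centred arrays, -0.0039 with the mean of probe sets, -0.0068 with array weights, -0.0238 with the replicate block and -0.0450 to 0.0443 with 1 array left out. With 1 array left out, Ppara ranged from -0.0133 to 0.0731 for fish oil against control and from -0.0565 to 0.0014 between the diets, Nr0b2 from -0.17 to 0.0523 and Nr1h3 from -0.0072 to 0.0492 between the diets. The Rxra difference for fish oil against control was 0.0053 with the mean of probe sets. Nr0b2 turned to -0.16 and -0.12 against control on fenofibrate and fish oil without control replicates 1, 2 and 9. The cause of these turns was not tested.

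Of the 36 member pairs, 0 passed by Pearson's r over all arrays, 5 without control replicates 1, 2 and 9, 1 with centred arrays and 0 with label pair means; the unadjusted counts were 7, 6, 5 and 4. With the replicate number as a replicate block, the members called were 5, 1 and 3, as without it, and 3 of 33 arrays correlated best with an array of their own number. Without the filter, 18193 genes were tested and no member's call changed. The filter at a log2 value of 6 left 6835 genes, without Pparg. Arrays hold no depth, and signal over background limits Pparg and Ppargc1a, the dimmest members tested, and keeps Ppard out.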

Other observations

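For each measured member, the genes whose deviations from the diet means were most like its own over the 33 arrays are given as a description, with Pearson's r. Ppara went most closely with Sf3b1 (0.76), Csnk2a1 (0.74) and Prox1 (0.73), and Pparg with Dhrs7, Rbm22 and Mtfp1 (0.61, 0.61 and 0.60). Ppargc1a went with Sult1d1 (0.79), Atp5pb (0.74) and Gdi2 (0.72). Rxra went with Myo18a (0.81), Eef2 (0.77) and Epha1 (0.75), and Nr1h3 with Gpd1 (0.78), Gfod2 (0.75) and Paqr9 (0.72). Nr1h4 was followed by Kalrn (0.70), after 2310067E19Rik (0.73) and before 1810013L24Rik (0.69), and Nr1i2 by Cipc, Pitpnm2 and Fbxo31 (0.65, 0.65 and 0.64). Nr1i3 had the highest values, with Bri3 (0.88), Pcsk4 (0.87) and Upp2 (0.86), and these were 0.74, 0.72 and 0.76 without control replicates 1, 2 and 9. Nr0b2 went with Depp1 (0.85), the mineralocorticoid receptor gene Nr3c2 (0.84) and Cyp2u1 (0.82), which were 0.75, 0.63 and 0.63 without those arrays.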
